A study of Mus musculus with 19 samples.

Results

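The alpha subunits of the voltage-gated sodium channels were followed through RNA sequencing of mouse dorsal root ganglia, which hold the cell bodies of the sensory neurons of a spinal segment. The members were the 9 genes Scn1a, Scn2a, Scn3a, Scn4a, Scn7a, Scn8a, Scn9a, Scn10a and Scn11a, found by name among the 36682 genes of the deposited table of counts and FPKM. All 9 passed the filter on low counts and were tested.

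All mice were males homozygous for the MaFIA transgene (macrophage Fas-induced apoptosis), the vehicle-treated controls included. The transgene is driven by the promoter of the macrophage receptor gene Csf1r, and the dimerizing drug AP20187 then triggers death of the cells that express it. Some mice underwent DMM (surgery that destabilizes the medial meniscus and produces osteoarthritis of the knee) and were sampled 8 weeks later, and the rest were naive and of matched age. Each received AP20187 or vehicle intraperitoneally once a day for 5 days, and ganglia L3 to L5 of 1 side were pooled per mouse. Below, "drug" stands for AP20187. The groups were DMM drug (n = 5, mice 58 to 62), DMM vehicle (n = 5, mice 32, 33, 34, 63 and 64), naive drug (n = 4, mice 1, 3, 4 and 5) and naive vehicle (n = 5, mice 1 to 5).

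An alpha subunit forms the pore of a sodium channel, and its opening carries the rising phase of the action potential. Sensory neurons are known for holding several alpha subunits at once, of which those of Scn10a and Scn11a pass current in the presence of the pufferfish poison tetrodotoxin, while those of Scn9a, Scn1a and Scn8a are blocked by it. Scn2a and Scn3a are best known from the brain and the embryonic nervous system, Scn4a from skeletal muscle, and Scn7a encodes a relative that responds to the sodium level outside the cell rather than to voltage.

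The difference in block by tetrodotoxin can be read in the coding sequence, where 1 codon in the pore loop of the first of the channel's repeats sets much of it. The windows of 45 bases around that codon are shown because they separate Scn10a and Scn11a, which made up 22.6% to 63.3% of the family's summed FPKM over the 19 libraries, from the other members shown. They come from the GENCODE M21 transcripts (GRCm38), read 5′ to 3′ in the sense of the transcript, with the codon in capitals.
Scn10a: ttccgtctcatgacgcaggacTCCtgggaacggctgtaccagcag
Scn11a: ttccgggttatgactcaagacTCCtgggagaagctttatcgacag
Scn9a: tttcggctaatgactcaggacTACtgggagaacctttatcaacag
Scn8a: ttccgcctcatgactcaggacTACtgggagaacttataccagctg
Scn3a: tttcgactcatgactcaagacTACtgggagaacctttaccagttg
Scn4a: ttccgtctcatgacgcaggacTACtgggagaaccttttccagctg
Scn2a: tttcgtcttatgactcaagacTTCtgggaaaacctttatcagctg
TCC encodes serine, TAC tyrosine and TTC phenylalanine. The search took the codons for threonine, glutamine and aspartate, then any codon, then those for tryptophan and glutamate, in the longest open reading frame. It had 1 match in each of these 7 members and none in Scn7a. Pairs of windows had 33 to 40 of their 45 bases in common, and the pair of Scn10a and Scn11a had 33.

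Libraries held 60984830 to 74691396 counts, and levels between libraries are given as CPM, the count scaled to the library total after TMM normalization. Every gene of the pan-neuronal (15 genes), nociceptor (13), satellite glia (8) and myelinating Schwann cell (8) marker lists was detected in every group. The libraries differed in how much neuronal transcript they held. The summed pan-neuronal level was 2385 to 8866 CPM in DMM drug, 6599 to 18916 in DMM vehicle, 2973 to 13980.1 in naive drug and 10741 to 20766 in naive vehicle. In such bulk samples fewer cells of a type and less RNA per cell cannot be told apart. Granulocyte genes (12 genes) moved the other way, with a sum of 17561 to 30422 CPM in DMM drug and 8366 to 28442 in naive drug, against 422 to 8233 and 904 to 2461 with vehicle. Of the 12 macrophage genes, none passed as lower with the drug, where 12.4% of all genes did in DMM and 2.57% in naive mice. As higher, 1 passed in DMM (median log2 fold change of the list 1.06) and 4 in naive mice (median 1.38). In either direction 23.8% of all genes passed in DMM and 11.2% in naive mice, and groups are named by their label.

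The makeup of the family was compared within libraries in FPKM, which scales counts to gene length. In naive vehicle mice the highest member was Scn10a (NaV1.8, carrier of much of the inward current of the action potential in nociceptors) at 102.8 ± 30.9 FPKM (SD, n = 5). Scn11a (NaV1.9, a channel that acts near the resting potential) followed at 92.7 ± 26.7 FPKM and Scn7a at 80.8 ± 6.22 FPKM. Those 3 overlapped between mice. Below them, and apart from them, was Scn9a (NaV1.7, which amplifies small depolarizations) at 38.9 ± 7.37 FPKM.

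Scn1a (NaV1.1) at 11.2 ± 4.10 FPKM and Scn8a (NaV1.6, the main channel of nodes of Ranvier) at 7.60 ± 3.21 FPKM were lower again and overlapped each other. Scn2a at 1.07 ± 0.296, Scn4a at 0.952 ± 0.332 and Scn3a at 0.552 ± 0.0843 FPKM closed the order (n = 5 each). In this group the ranges of neighbours were apart only between Scn7a and Scn9a, between Scn9a and Scn1a, and between Scn8a and Scn2a. Scn10a, Scn11a, Scn7a and Scn9a made up 88.5% to 95.8% of the summed FPKM of the family over the 19 libraries. Part of the order held in each library: Scn11a was above Scn9a, Scn9a above Scn1a, Scn1a above Scn8a and Scn8a above Scn2a in 19 of 19.

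**Figure D1:**
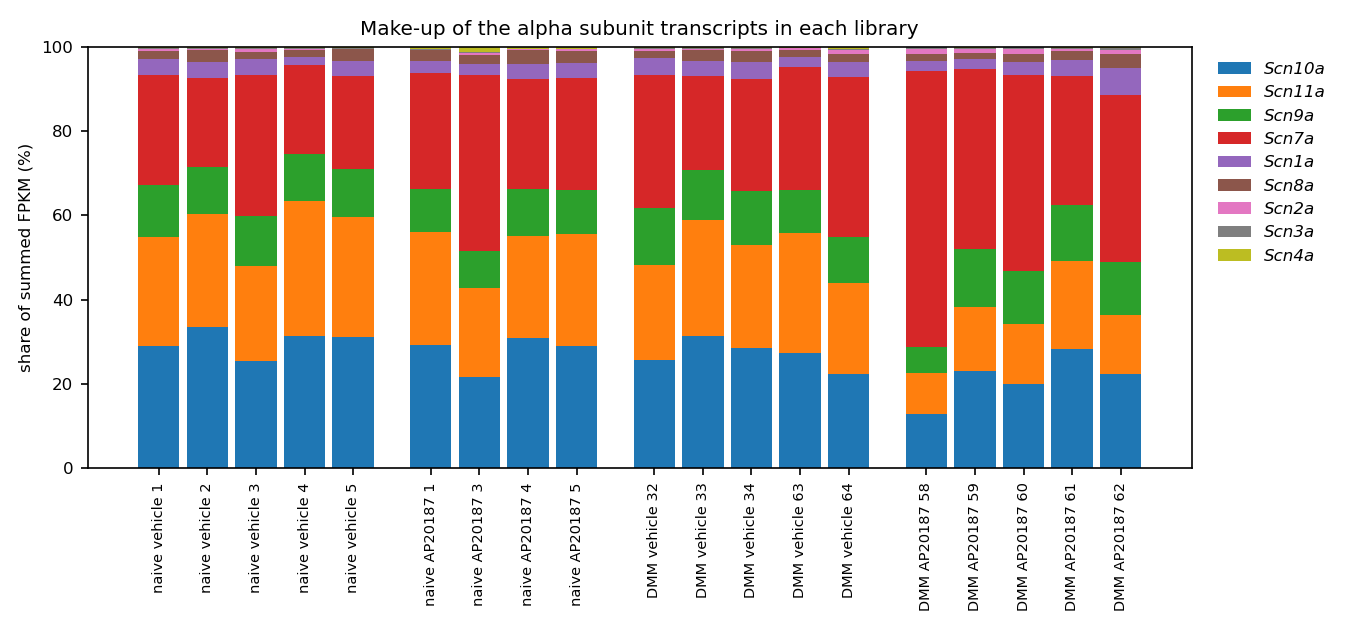
Share of each alpha subunit in the family's summed FPKM (percent, vertical axis), 1 bar per library, with the libraries grouped by surgery and treatment. Scn10a and Scn11a took 47.9% to 63.3% in naive vehicle mice and 22.6% to 49.2% in DMM drug mice, where Scn7a was the highest member in all 5 libraries.

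The rank of Scn7a varied between groups and between mice. Its share was 45.0 ± 12.95% of the summed FPKM there (SD, n = 5), against 29.6 ± 5.88% in DMM vehicle, 30.5 ± 7.58% in naive drug (n = 4) and 24.9 ± 5.30% in naive vehicle. Scn7a was above Scn10a in 5 of 5 libraries of DMM drug and in 3 of 5 of DMM vehicle (mice 32, 63 and 64). It was below Scn10a in 3 of 4 libraries of naive drug and in 4 of 5 of naive vehicle. The share of Scn10a and Scn11a together ran the other way, at 36.1 ± 9.53% in DMM drug, 51.9 ± 6.001% in DMM vehicle, 52.4 ± 6.43% in naive drug and 57.2 ± 6.04% in naive vehicle. Summed over the family, the level was 97.5 ± 55.6, 266 ± 153, 157 ± 97.3 and 337 ± 72.7 FPKM in those groups, in the same order. Shares are descriptions, without a test.

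The genes lie in clusters, and positions are those the files list, on GRCm39. Scn3a (ENSMUSG00000057182, chr2:65287462-65397971), Scn2a (ENSMUSG00000075318, chr2:65451115-65597791), Scn1a (ENSMUSG00000064329, chr2:66101122-66271184), Scn9a (ENSMUSG00000075316, chr2:66310424-66465306) and Scn7a (ENSMUSG00000034810, chr2:66503769-66615258) follow one another on chromosome 2. All but Scn2a are on the minus strand. Scn10a (ENSMUSG00000034533, chr9:119437533-119548388) and Scn11a (ENSMUSG00000034115, chr9:119582825-119654522) are neighbours on the minus strand of chromosome 9. Scn4a (ENSMUSG00000001027, chr11:106209418-106244114, minus strand) and Scn8a (ENSMUSG00000023033, chr15:100767739-100943810, plus strand) stand alone. Gm13630 overlaps Scn1a on the opposite strand with 0.575% as many counts, and Gm13629 overlaps Scn9a on the opposite strand with 0.776%. Gm13627 lies within Scn9a on the same strand with 83 counts over all libraries.

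Some members share sequence exactly, which bears on how far their counts can be told apart. Of the 100-base windows of each transcript, 3.30% in Scn3a, 2.57% in Scn9a, 2.16% in Scn2a and 1.22% in Scn1a were also in another member, and none in the other 5. If reads lay evenly over the transcript, the windows common to Scn9a and Scn3a would hold 855 counts of Scn9a in naive vehicle mice, where Scn3a had 485 counts on average. The same estimate was 359 beside 127 in naive drug, 698 beside 393 in DMM vehicle and 267 beside 222 in DMM drug. How reads with more than 1 match were assigned is not given in the sources used here, so the level of Scn3a is uncertain.

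The effect of AP20187 in osteoarthritic mice was asked first. With the drug, 2 of 9 members were lower, Scn11a and Scn4a, and none was higher, by edgeR's quasi-likelihood test with Benjamini-Hochberg adjustment over 22778 genes at a threshold of 0.05. Of all genes tested, 23.8% passed in either direction and 12.4% as lower, so 2 of 9 is near the background. The log2 fold changes (AP20187 minus vehicle) were negative for 9 of 9 members, with a median of -1.36, where 55.3% of all genes were negative and their median was -0.10. The ranges of CPM overlapped between the groups for all 9, while 4.18% of all genes were lower with ranges apart.

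Scn10a and Scn11a, the tetrodotoxin-resistant pair, had the most negative log2 fold changes of the abundant members. Scn10a was at 22.9, 176, 154, 417 and 189.7 CPM in DMM mice 58 to 62 with AP20187. With vehicle it was at 655, 1175 and 761 CPM in mice 32, 33 and 34, and at 324 and 133 CPM in mice 63 and 64. Mice 63 and 64 lay within the range of the drug group, and mice 32 to 34 above all of it. The log2 fold change of Scn10a was -1.67 (SE 0.626, adjusted p 0.0594), which missed the threshold.

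Scn11a was at 13.3, 85.9, 80.4, 230.1 and 90.001 CPM with AP20187 in mice 58 to 62. With vehicle it was at 425, 777, 484, 253 and 95.9 CPM in mice 32, 33, 34, 63 and 64. Only vehicle mouse 64 lay within the range of the drug group. The means were 99.9 ± 79.3 and 407 ± 257 CPM (SD, n = 5 each), a fall by 2.03 on the log2 scale or 4.07-fold (SE 0.610, adjusted p 0.0242), with 5 of 5 drug libraries below the vehicle mean.

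Scn4a, the channel of skeletal muscle fibres, was 1 of the 3 least abundant members. It was at 0.121, 1.26, 0.366, 2.71 and 2.36 CPM with AP20187 in mice 58 to 62, the first of which is 8 counts. With vehicle it was at 7.89, 6.83, 7.17, 2.18 and 2.87 CPM in mice 32, 33, 34, 63 and 64. As with Scn10a, mice 63 and 64 were the ones near the drug group. The means were 1.36 ± 1.16 and 5.39 ± 2.66 CPM (n = 5 each), a fall by 1.98 on the log2 scale (SE 0.586, adjusted p 0.0223), with 5 of 5 drug libraries below the vehicle mean.

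Muscle transcripts ran with Scn4a in some comparisons and not in others. The skeletal muscle list (10 genes, none at 0 in any group) summed to 19.4 to 160.2 CPM in DMM drug and 18.5 to 2067 with vehicle, and 2 of its 10 genes passed as lower with the drug, beside 12.4% of all genes. All 10 had negative log2 fold changes, with a median of -2.77, as they had between DMM and naive mice with AP20187 (median -4.75). DMM vehicle mouse 32 had the 2067 CPM and 7.89 CPM of Scn4a, while mouse 33 had 25.5 CPM of muscle transcripts and 6.83 CPM of Scn4a. In naive drug mice the list summed to 1751 to 2720.0 CPM, against 16.4 to 479 with vehicle, with a median log2 fold change of 3.64, and that of Scn4a was -0.11 (adjusted p 0.921). The part of muscle in the level of Scn4a was not tested.

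**Figure D2:**
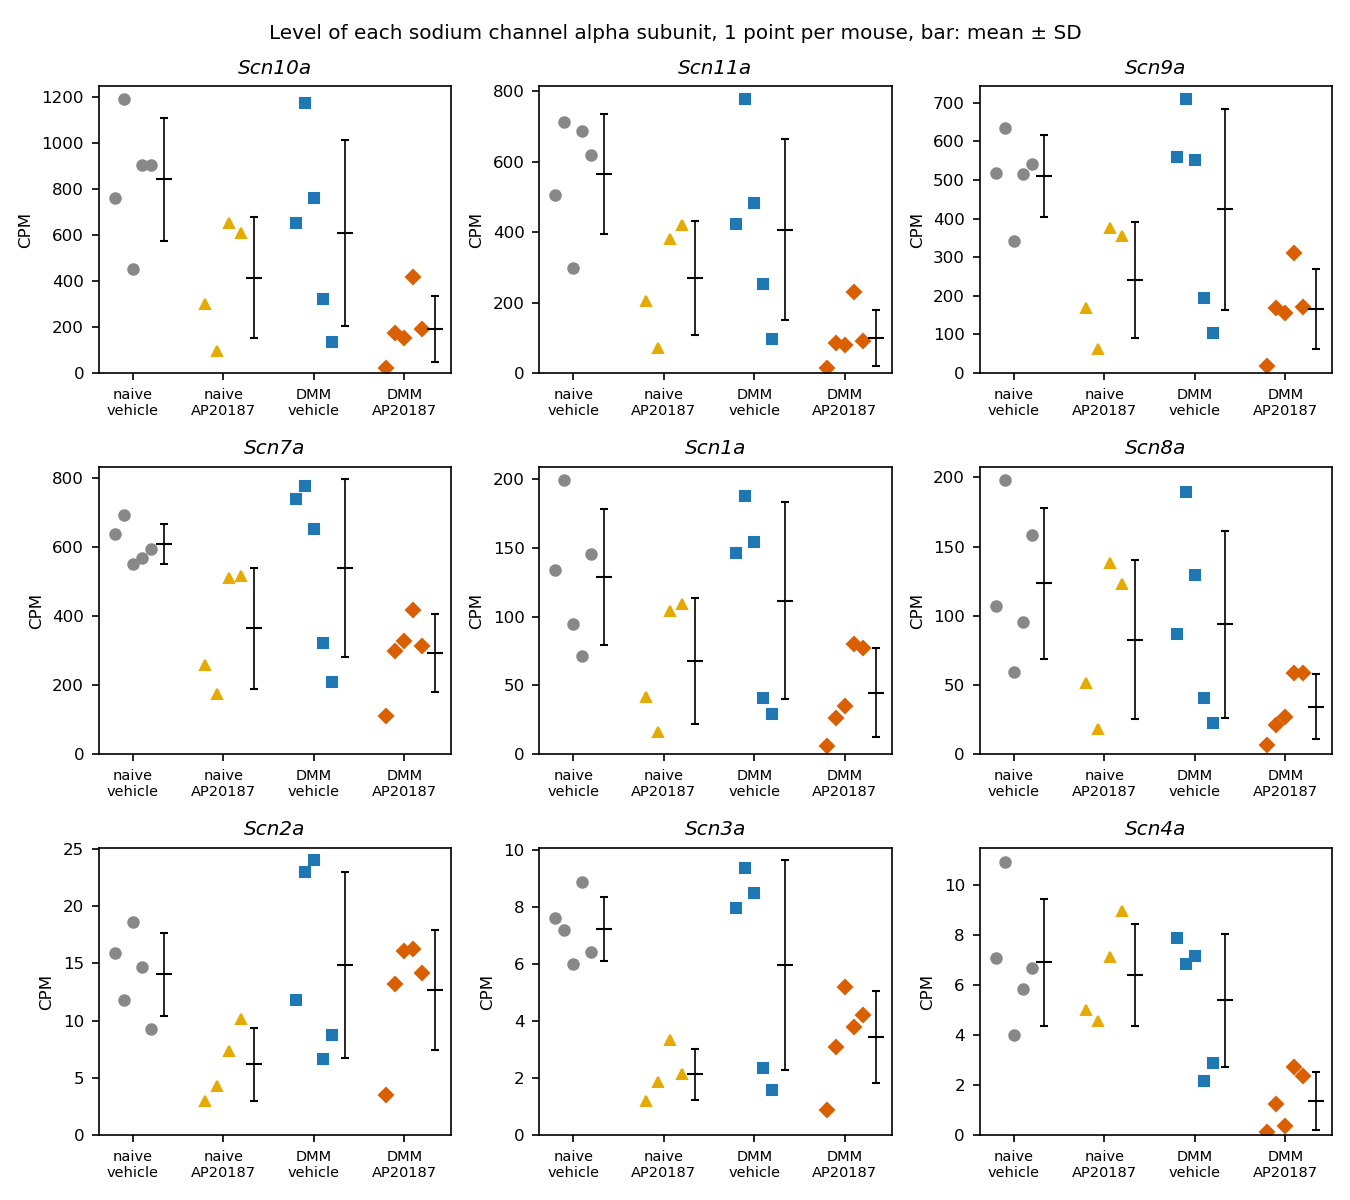
CPM of each alpha subunit (vertical axis, linear, a scale per gene) in the 4 groups, 1 point per mouse in the order of mouse numbers, with the mean ± SD beside the points. In DMM vehicle the last 2 points of each panel, mice 63 and 64, lie below the 3 others, as for Scn10a at 324 and 133 CPM against 655 to 1175 CPM.

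The tetrodotoxin-sensitive members of sensory neurons also overlapped between the groups. Scn9a was at 17.5, 168, 156, 310.3 and 172 CPM with AP20187 in mice 58 to 62, and at 558, 709, 552, 194 and 104 CPM with vehicle in mice 32, 33, 34, 63 and 64. Its log2 fold change was -1.36 (SE 0.592, adjusted p 0.1002). Scn1a ran from 5.73 to 80.1 CPM with AP20187 and from 29.1 to 188 CPM with vehicle, and Scn8a from 6.38 to 58.7 and from 22.8 to 189 CPM. Their log2 fold changes were -1.32 (adjusted p 0.136) and -1.46 (adjusted p 0.0971). For these 3 members, too, the groups overlapped through vehicle mice 63 and 64, and none passed.

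Scn7a was at 109, 299, 328, 417 and 312 CPM with AP20187 in mice 58 to 62, and at 738, 776, 651, 321 and 209.8 CPM with vehicle in mice 32, 33, 34, 63 and 64. Its log2 fold change was -0.88 (SE 0.377, adjusted p 0.0951), smaller than that of any other abundant member, though the difference between members was not tested. Scn3a ran from 0.864 to 5.19 CPM with the drug and from 1.57 to 9.37 CPM with vehicle (log2 fold change -0.79, adjusted p 0.228). Scn2a was at 3.53, 13.2, 16.1, 16.3 and 14.1 CPM with AP20187 and at 11.8, 23.0, 24.0, 6.62 and 8.76 CPM with vehicle. Its log2 fold change was -0.23 (SE 0.417, adjusted p 0.741), the smallest of the 9, and 4 of 5 drug libraries lay inside the vehicle range.

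The outcome in DMM mice rested on which vehicle mice were entered. Against mice 32 to 34 only, 8 of 9 members passed as lower, all but Scn2a, with log2 fold changes of -2.49 for Scn11a and -2.17 for Scn10a. In that setting 36.3% of all genes passed, against 23.8% with all 5 vehicle mice. Against mice 63 and 64 only, no member passed, where 4.73% of all genes did, Scn11a was at -0.77 (adjusted p 0.611) and 6 of the 9 log2 fold changes were positive. The labels give only the numbers of the mice, with no batch, and whether the number series differ in anything else was not tested. Granulocyte and neuronal transcripts differed along the split too, but mouse 63 lay nearer to mouse 34 than to mouse 64 in both. Mice 32 to 34 had 422 to 2220.1 CPM of granulocyte and 15047 to 18916 CPM of neuronal transcripts. Mice 63 and 64 had 2865 and 8233 CPM, and 13839.5 and 6599 CPM. The nociceptor list summed to 3764 CPM in mouse 63, the highest of the DMM vehicle mice, and to 2182 CPM in mouse 64. Per 1000 CPM of pan-neuronal transcript, Scn10a was at 23.4 and 20.2 CPM in mice 63 and 64, against 40.9 to 62.1 CPM in mice 32 to 34. The erythroid list (8 genes) summed to 1599 to 6901 CPM in mice 32 to 34 and to 11610.3 and 26729.5 CPM in mice 63 and 64.

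Single libraries moved the count as well. Without vehicle mouse 64, 6 of 9 passed (Scn7a, Scn8a, Scn9a, Scn10a, Scn11a and Scn4a), where 34% of all genes passed. Over the 10 fits that each left out 1 DMM mouse, 14.2% to 34% of all genes passed. Scn11a missed the threshold without AP20187 mouse 59 (-1.98, adjusted p 0.0530), 60 (-1.96, 0.0548) or 62 (-1.99, 0.0520), with log2 fold changes close to the -2.03 over all mice, and without vehicle mouse 33 (-1.65, 0.0734). Scn4a missed it without AP20187 mouse 60 (-1.74, 0.0506), so that no member then passed. With the DMM groups fitted alone, none passed, where 19.8% of all genes did. Scn11a was then at -2.025 (adjusted p 0.0518) and Scn4a at -1.984 (0.0671), so their log2 fold changes hardly moved. DESeq2 called 4 members (Scn4a, Scn8a, Scn10a and Scn11a) and limma voom with sample weights called 8, where they called 29.3% and 46.9% of all genes. Scn10a passed with DESeq2 (adjusted p 0.0206), with voom weights (0.000965), with limma on log2(FPKM + 1) (0.0499, beside 28.8% of all genes), without AP20187 mouse 61 (-2.17, 0.0212) and without vehicle mouse 64 (-1.93, 0.0198). Over the 23 alternatives the adjusted p ran from 0.000184 to 0.611 for Scn11a, from 0.000160 to 0.529 for Scn4a and from 0.000965 to 0.924 for Scn10a.

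Many neuronal transcripts were lower in the same comparison. With AP20187 in DMM, 11 of the 15 pan-neuronal genes and 9 of the 13 nociceptor genes passed as lower, where 12.4% of all genes did, with median log2 fold changes of -1.36 and -1.67, and no gene of either list was at 0 in any group. Of the large-fibre neuron list 4 of 11 passed as lower, with log2 fold changes of -1.58 to 0.56. Lists of other cells held genes that passed as lower too, 3 of 8 for myelinating Schwann cells, 6 of 8 for erythroid cells and 9 of 10 for the early B lineage, and the part of these cells in the members' levels was not tested. When libraries were scaled to the summed pan-neuronal counts in place of all genes, the median over all genes tested moved from -0.10 to 1.32 (log2), and that of the members was -0.04. On that scale Scn11a was at -0.73 (SE 0.374, adjusted p 0.111), Scn10a at -0.35, Scn4a at -0.86 (adjusted p 0.140), Scn9a at -0.02 and Scn1a at -0.04. Scn7a, Scn3a and Scn2a turned positive, at 0.55, 0.69 and 1.12. Scn2a was then the 1 member to pass, as higher (SE 0.448, adjusted p 0.0493), where 43.5% of all genes passed, and its adjusted p over the 23 alternatives ran from 0.0493 to 0.990. Scaled to nociceptor counts, a setting added after seeing the data, no member passed, where 44.2% of all genes did.

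Expressed per 1000 CPM of pan-neuronal transcript, Scn2a was at 2.33 ± 0.790 CPM in DMM drug, 1.07 ± 0.454 in DMM vehicle, 0.784 ± 0.458 in naive drug (n = 4) and 1.02 ± 0.528 in naive vehicle (SD, n = 5 unless given). Scn11a was at 16.03 ± 7.49, 26.5 ± 10.7, 27.7 ± 3.97 and 37.5 ± 14.3 CPM per 1000 in the same order. These ratios narrowed the spread over the 19 libraries for 8 of 9 members, Scn2a being the exception. The highest library was 58.6 times the lowest for Scn11a in CPM and 11.3 times per neuronal transcript, 52.1 and 8.60 times for Scn10a, 40.5 and 6.41 times for Scn9a, and 7.13 and 3.00 times for Scn7a. Scn4a was the widest on both, at 90.3 and 30.2 times, and Scn2a was at 8.04 and 9.40 times.

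**Figure D3:**
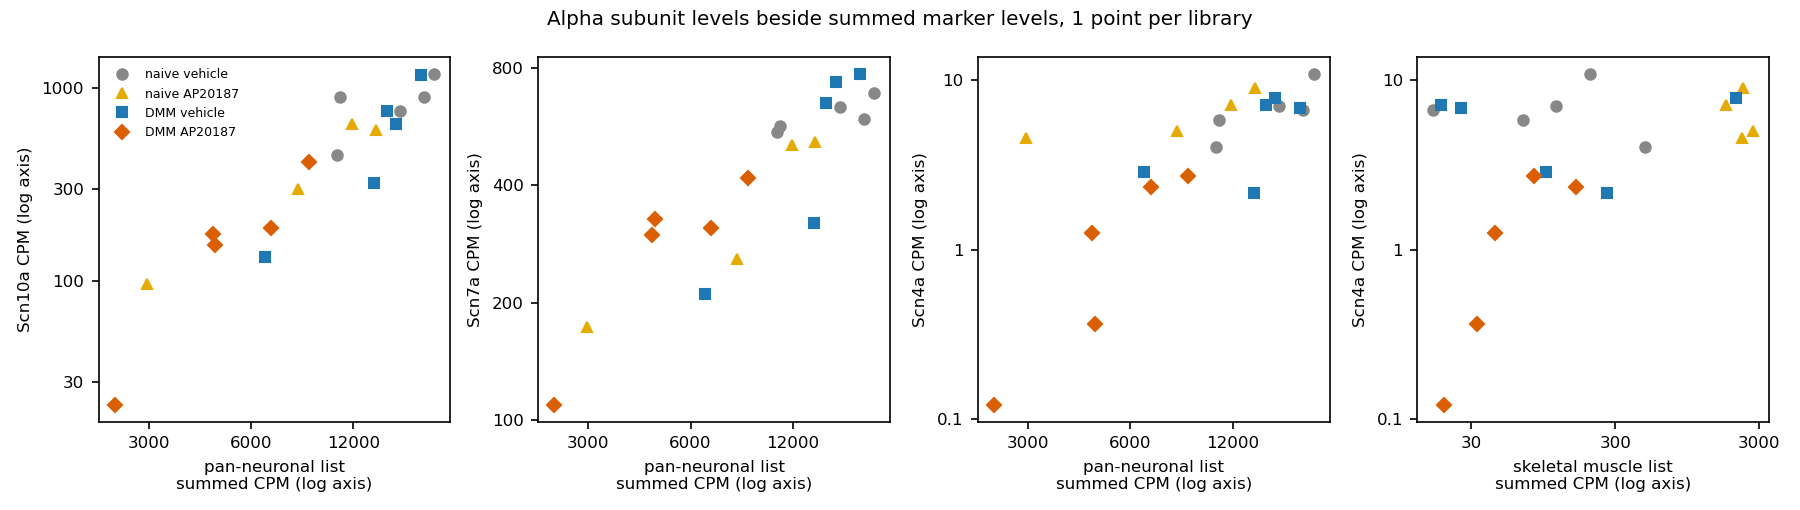
CPM of Scn10a, Scn7a and Scn4a beside the summed CPM of the pan-neuronal list, and of Scn4a beside that of the skeletal muscle list, 1 point per library, all axes logarithmic. DMM AP20187 mouse 58, at the lower left of the neuronal panels, had 2385 CPM of the pan-neuronal list and 22.9 CPM of Scn10a, the lowest of the 19 libraries in both.

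The ratio of the neighbours Scn11a and Scn10a was lowest with the drug in DMM. The FPKM of Scn11a was 0.637 to 0.780 times that of Scn10a in the 5 libraries of DMM drug, and 0.786 to 1.05 times in the 14 others, so the ranges were apart by a narrow margin. This ratio was singled out after its values were seen and carries no test.

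In naive mice AP20187 was compared with vehicle in the same model. Only Scn3a passed, as lower, 1 of 9 members, where 11.2% of all genes passed in either direction and 2.57% as lower. The log2 fold changes were again negative for 9 of 9, with a median of -1.02, beside 53.6% of all genes and a median of -0.07. The ranges were apart for Scn3a and Scn7a, 2 of 9, where 6.15% of all genes were lower with ranges apart.

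Scn3a (NaV1.3, a channel of developing neurons) was at 1.18, 1.86, 3.33 and 2.15 CPM with AP20187 in naive mice 1, 3, 4 and 5. With vehicle it was at 7.62, 7.18, 6.01, 8.87 and 6.40 CPM in mice 1 to 5, each above all 4 drug libraries. The means were 2.13 ± 0.898 (n = 4) and 7.22 ± 1.12 CPM (n = 5), a fall by 1.76 on the log2 scale (SE 0.515, adjusted p 0.0347). The call was lost without any 1 of 7 of the 9 naive mice (AP20187 mice 1, 3 and 5 and vehicle mice 1, 2, 4 and 5), with log2 fold changes of -1.78 to -1.56 and adjusted p of 0.0518 to 0.113. It was also lost with no count filter, at an unmoved log2 fold change (-1.76, adjusted p 0.0545), and per neuronal transcript (-0.75, adjusted p 0.249). The adjusted p ranged from 0.00454 to 0.249 over 22 alternatives.

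Scn2a had the next lowest value in naive mice. It was at 2.99, 4.26, 7.31 and 10.1 CPM with AP20187 in mice 1, 3, 4 and 5 and at 15.9, 11.8, 18.6, 14.7 and 9.23 CPM with vehicle in mice 1 to 5, overlapping at drug mouse 5. Its log2 fold change was -1.19 (SE 0.456, adjusted p 0.0969). It passed with DESeq2 (adjusted p 0.0433, where 17.8% of all genes passed), with limma on log2(FPKM + 0.1) (0.0462, beside 19.7%), with the naive groups fitted alone (0.0485, beside 13%) and without AP20187 mouse 5 (-1.53, 0.0474), in a range of 0.0433 to 0.641.

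Some markers of other nervous tissue were lower in the same comparison. Of the central neuron list 6 of 12 genes, and of the spinal cord glia list 4 of 8, passed as lower with AP20187 in naive mice, beside 2.57% of all genes. The central neuron list summed to 71.1 to 388 CPM with AP20187 and 274 to 552 with vehicle, and the spinal cord glia list to 25.7 to 41.3 and 39.4 to 45.9 CPM. Gabra6 and Slc6a5, of cerebellar granule cells and glycinergic neurons, were at 0 counts in all 4 drug libraries and at 0.971 and 0.807 CPM with vehicle. Most of the central neuron sum came from Camk2a, Slc17a7 and Grin1, at means of 198, 106 and 104 CPM in naive vehicle mice. Between mice this sum did not run with Scn2a throughout: in naive vehicle mouse 3 it was the lowest of its group, at 274 CPM. Scn2a was highest there, at 18.6 CPM, and the spinal cord glia sum was 43.9 CPM. In naive drug mice 1, 3, 4 and 5 the spinal cord glia sum was 25.7, 28.1, 31.9 and 41.3 CPM, rising in the same order as Scn2a. In DMM the central neuron sum had a median of 118 CPM with AP20187 and 399 with vehicle, where Scn2a was at -0.23 on the log2 scale. Taken gene by gene, the list had a median log2 fold change of -0.37 in DMM and -1.55 in naive mice. For the spinal cord glia list the medians were -0.14 and -1.27. The part of such tissue in the levels of Scn2a and Scn3a was not tested.

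Scn7a, Scn10a, Scn11a, Scn9a, Scn1a and Scn8a spread widely within the naive drug group. Scn7a was at 259, 173, 508 and 517 CPM with AP20187 in mice 1, 3, 4 and 5, and at 638, 691, 549.6, 568 and 592 CPM with vehicle in mice 1 to 5. The groups did not overlap, yet the log2 fold change of -0.74 (SE 0.402) did not pass (adjusted p 0.229). Scn10a was at 299.7, 96.9, 651 and 611 CPM with AP20187 and at 762, 1191, 451, 904 and 904 CPM with vehicle, which is -1.02 on the log2 scale (SE 0.661, adjusted p 0.309). Scn11a and Scn9a were at -1.07 (adjusted p 0.271) and -1.08 (0.261), Scn1a at -0.93 (0.366) and Scn8a at -0.58 (0.573). Mouse 3 was the lowest naive drug library for all 6, and it also had the lowest pan-neuronal sum of its group, 2973 CPM. None of the 15 pan-neuronal genes and none of the 13 nociceptor genes passed in naive mice, but all had negative log2 fold changes, with medians of -0.71 and -0.86 beside -0.07 for all genes. Per neuronal transcript, Scn4a (0.93), Scn8a (0.09) and Scn7a (0.04) turned positive, as the median of all genes moved from -0.07 to 1.05, and no member passed, where 14.1% of all genes did.

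**Figure D4:**
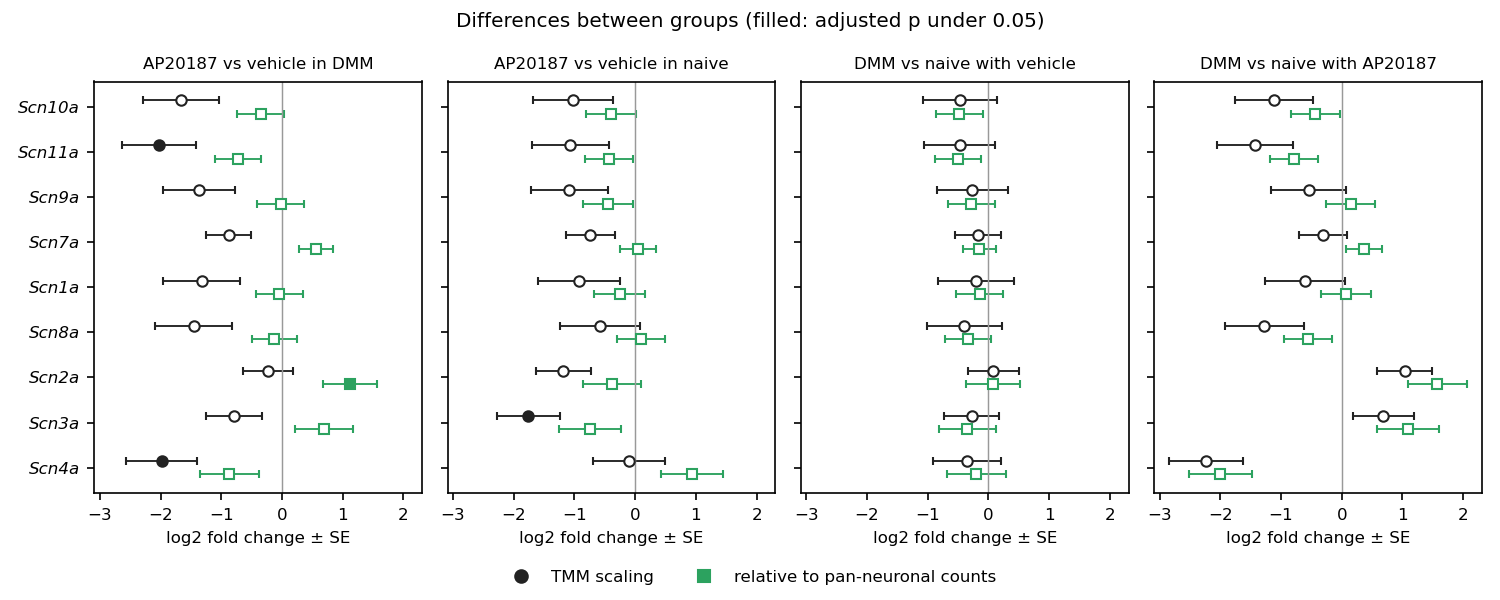
Log2 fold change ± SE of each alpha subunit (horizontal axis) in the 4 pairwise comparisons, with libraries scaled by TMM (circles) or to pan-neuronal counts (squares); filled symbols passed an adjusted p of 0.05. The passing values are Scn11a (-2.03) and Scn4a (-1.98) in DMM and Scn3a (-1.76) in naive mice by TMM, and Scn2a (1.12) in DMM per neuronal transcript.

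Surgery itself was compared next. With vehicle, 0 of 9 members passed between DMM and naive mice, and 0% of all genes did, with edgeR. At an unadjusted p under 0.05, 1.66% of all genes and no member stood out, and DESeq2 and voom weights, which called 0.00274% and 0.00439% of all genes, called no member either. The log2 fold changes (DMM minus naive) ran from -0.47 for Scn11a and Scn10a to 0.08 for Scn2a. Scn10a was at 609 ± 404 CPM in DMM and 842 ± 268 CPM in naive mice, and Scn9a at 423 ± 260.1 and 509.7 ± 106 CPM (n = 5 each). The SE of these differences was 0.374 for Scn7a and 0.611 for Scn10a on the log2 scale, and each of the 9 differences was smaller than its own SE. With mice 32 to 34 only, 7 of the log2 fold changes turned positive, up to 0.34 for Scn1a, and 0% of all genes passed. With mice 63 and 64 only, all 9 were negative, from -1.99 for Scn8a, -1.90 for Scn10a, -1.89 for Scn1a and -1.87 for Scn3a (adjusted p 0.0582) to -0.84 for Scn2a, and no member passed, where 2.21% of all genes did.

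With AP20187, 0 of 9 members passed between DMM and naive mice, where 0.702% of all genes did. This comparison shares its drug libraries with the comparisons above. Scn4a ran from 0.121 to 2.71 CPM in DMM mice, and naive mice 1, 3, 4 and 5 had 5.00, 4.56, 7.14 and 8.98 CPM. It was the 1 member with ranges apart, where 2.44% of all genes were apart and lower in DMM, at -2.23 on the log2 scale (SE 0.610, adjusted p 0.0856). Scn4a passed with DESeq2 (adjusted p 0.0101), with voom weights (0.00544) and with limma on log2(FPKM + 1) (0.0371) or log2(FPKM + 0.1) (0.0243), in a range of 0.00544 to 0.232. Those fits called 4.72%, 10.8%, 5.78% and 4.71% of all genes, in the same order. Voom weights also called Scn8a (0.0444) and Scn11a (0.0312). The naive drug group was the one with 1751 to 2720.0 CPM of skeletal muscle transcripts, against 19.4 to 160.2 CPM in DMM. Scn2a and Scn3a were the only members with positive values, 1.04 (adjusted p 0.259) and 0.69 (adjusted p 0.501). Of the central neuron list 5 of 12 genes passed as higher in DMM (median log2 fold change 1.46), beside 0.702% of all genes in either direction. Of the spinal cord glia list 1 of 8 did (median 1.29). The part of such tissue in these 2 members was not tested.

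The difference of the drug's effect between DMM and naive mice was tested as an interaction. It passed for 0 of 9 members, beside 0.114% of all genes, with adjusted p of 0.602 or more, and no alternative called a member. At an unadjusted p under 0.05 there was 1 member, Scn4a, with -1.88 (SE 0.823), where 7.67% of all genes were under it. Scn2a and Scn3a were at 0.96 and 0.97, and the other members at -0.96 to -0.14. Of the central neuron list 4 of 12 genes passed as higher (median 1.41), beside the 0.114% of all genes. Of the spinal cord glia list 0 of 8 did (median 1.21). The part of such tissue in Scn2a and Scn3a was not tested. For the members, calls in DMM or naive mice alone do not show that the drug's effect differed between them.

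Channel partners were read from a list of 16 genes. In DMM drug, 7 of 16 were lower and none higher, where 12.4% of all genes were lower, with a median log2 fold change of -1.19, and in each of the other 3 pairwise comparisons and the interaction none passed. Beta subunits, which anchor alpha subunits and tune their gating, were at -1.39 for Scn2b (adjusted p 0.0105), -1.42 for Scn3b (0.0181) and -1.58 for Scn4b (0.0705), so that Scn4b missed the threshold. Of the others, Fgf13 (-1.36, adjusted p 0.0178) and Fgf12 (-1.15, 0.0228) encode intracellular factors that bind the channel's tail, and Nedd4l (-1.43, 0.0181) a ubiquitin ligase that removes channels from the membrane. Scaled to pan-neuronal counts, no partner was lower and 2 were higher, beside 43.5% of all genes.

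The genes most like each member over the 19 libraries were found by the root mean square distance between centred log2 CPM profiles, among 14559 genes. The nearest to Scn11a was Scn10a, at 0.1996. Scn10a had Phf24 (0.181), then Scn11a (0.1996) and Cntn2 (0.208). Scn9a had Arfgef3 (0.168), Kcnb2 (0.172) and Erich3 (0.206), and Scn1a had Gpr158 (0.175), Sv2b (0.186) and the channel partner Cntn1 (0.197). Scn7a had Rgs17 (0.149), Ppfia2 (0.149) and Sestd1 (0.154), and Scn8a had Pcnx2 (0.198), Slc6a17 (0.199) and Atp8a2 (0.205).

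The 3 least abundant members had no neighbour as close. Scn3a had L3mbtl1 at 0.369, Scn2a had Mir124a-1hg at 0.411 and Scn4a had Hhatl at 0.680. The distances are descriptions over libraries that share their differences in neuronal transcript.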

How the data were processed

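Poly(A) RNA of pooled ganglia was sequenced from stranded libraries, per the labels' protocols. The authors deposited unnormalized whole-number counts and a table that adds FPKM for 36682 genes, per the file headers. The 9 members had equal counts in both tables. Cutadapt, HISAT2, StringTie and the build GRCm39 are named in the submitters' processing notes. The annotation, the strand setting and the treatment of reads with several matches are not given in the sources used here. Strand settings could move counts between overlapping genes. Rows with no gene name held 0.414% to 1.72% of a library's counts in the larger table and entered no test.

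Counts were tested in R 4.3.3 with edgeR 4.0.16: TMM normalization, filterByExpr with a minimum count of 10 (22778 genes left), and 1 quasi-likelihood model of 4 groups over 19 libraries with 15 residual degrees of freedom. Tests were two-sided, with Benjamini-Hochberg adjustment over all genes tested. DESeq2 1.42.0 and limma 3.58.1 (voom with sample weights, and FPKM on the log2(FPKM + 1) scale) were alternatives. The model was tested on simulated data. Named genes are the 9 members, beta subunits, up to 3 further partners with the smallest adjusted p, and the 3 nearest profiles per member, of which some are not printed, beside genes that overlap a member and marker genes whose level is needed beside one; 1 gene and some sequences are not reported here. Members, lists and tests were chosen with earlier results of these data known. Mouse numbers recur in both naive groups, but these are different animals.

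Each group has 4 or 5 mice, and counting error is small beside the spread between mice for all but the lowest values. Sequences are from GENCODE M21 transcripts, and no coordinate was taken from that build.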

Additional observations from a re-analysis of the deposited data

Results flagged for a closer look

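Of 36 sets of values (9 members in 4 groups), 1 held a library far from the others. Scn2a was at 3.53 CPM in DMM AP20187 mouse 58, the lowest of 5, with a gap to the next library of 0.76 of the range, above Dixon's critical value of 0.71. Chance alone gives such a gap in about 1 set in 20. The same library was the lowest of the 19 in pan-neuronal transcripts (2385 CPM). Without it the log2 fold change of Scn2a between AP20187 and vehicle in DMM was 0.010 in place of -0.23.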

How the results depend on the processing

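The count of members that passed depended on the setting in the 2 comparisons of AP20187 with vehicle. In DMM it was 2, and became 1 when scaled to pan-neuronal counts, 0 when scaled to nociceptor counts (added after seeing the data), 4 with DESeq2, 8 with voom weights, 0 with the DMM groups alone, 8 against vehicle mice 32 to 34 only and 0 against mice 63 and 64 only. The share of all genes that passed was 23.8%, and in those settings, in the same order, 43.5%, 44.2%, 29.3%, 46.9%, 19.8%, 36.3% and 4.73%. Leaving out 1 mouse gave 0 to 6 members, beside 14.2% to 34% of all genes. In naive mice it was 1, where 11.2% of all genes passed. It became 0 by pan-neuronal scaling (14.1% of all genes), and by nociceptor scaling or with no count filter, whose shares are not given here. It was 2 with DESeq2 (17.8%), limma on log2(FPKM + 0.1) (19.7%) or the naive groups alone (13%). With 1 mouse left out it was 0 to 1, beside 4.24% to 14.7% of all genes. In DMM against naive with AP20187 it was 0, and became 1 with DESeq2, 3 with voom weights and 1 with limma on log2(FPKM + 1) or log2(FPKM + 0.1). With vehicle, and for the interaction, it was 0 in every setting run.

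Log2 fold changes reversed sign as follows. Against vehicle mice 63 and 64 only, AP20187 in DMM gave Scn1a 0.36, Scn2a 0.73, Scn3a 0.83, Scn7a 0.18, Scn8a 0.13 and Scn9a 0.17, surgery with vehicle gave Scn2a -0.84, and the interaction gave Scn1a 1.29, Scn7a 0.90, Scn8a 0.71, Scn9a 1.25, Scn10a 0.80 and Scn11a 0.30. With mice 32 to 34 only, surgery with vehicle gave Scn1a 0.34, Scn3a 0.25, Scn4a 0.079, Scn7a 0.25, Scn8a 0.13, Scn9a 0.25 and Scn10a 0.036. Pan-neuronal scaling gave Scn2a 1.12, Scn3a 0.69 and Scn7a 0.55 in DMM, Scn4a 0.93, Scn7a 0.0423 and Scn8a 0.0932 in naive mice, Scn1a 0.071, Scn7a 0.36 and Scn9a 0.15 for surgery with AP20187, and Scn1a 0.22, Scn7a 0.51, Scn9a 0.43 and Scn10a 0.0421 for the interaction. Nociceptor scaling gave Scn2a 0.73, Scn3a 0.24 and Scn7a 0.15 in DMM, Scn4a 0.87, Scn7a 0.12 and Scn8a 0.23 in naive mice, and Scn7a 0.034 for the interaction. For surgery with vehicle, limma on log2(FPKM + 0.1) gave Scn2a -0.022, and voom gave Scn3a 0.00348 and Scn7a 0.010. For the interaction, limma on log2(FPKM + 1), with or without its filter, gave Scn7a 0.19 and Scn9a 0.078, and on log2(FPKM + 0.1) 0.19 and 0.023. Leaving out 1 mouse gave ranges across 0 for Scn2a (-0.42 to 0.013) in DMM, Scn4a (-0.33 to 0.12) in naive mice, Scn1a (-0.48 to 0.037), Scn2a (-0.16 to 0.27) and Scn7a (-0.34 to 0.032) for surgery with vehicle, and Scn7a (-0.38 to 0.079) and Scn9a (-0.64 to 0.019) for the interaction. The cause was not tested.

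The naive groups share mouse numbers, and the deviations of same-numbered libraries correlated at 0.0078, 0.25, -0.053 and 0.22. Pairs with different numbers ran from -0.29 to 0.16, below the same-numbered pairs of mice 3 and 5. So few pairs cannot decide whether the numbers pair the mice. A fit with the replicate block passed 2 members, Scn3a and Scn11a (-1.17, adjusted p 0.0357), where 11.5% of all genes passed, and gave Scn4a 0.13. On the same mice without the block, a fit added after seeing the data, Scn3a alone passed, where 6.8% of all genes did, Scn11a was at -0.96 (adjusted p 0.249) and Scn4a at 0.14. Depth limited Scn4a most, at 8 counts in the lowest library.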
